A study of Mus musculus with 9 samples.

Results

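Among the T-cell receptor alpha chains of mouse lymph nodes, 521 of 18427 distinct chains were found in 3 or more of 8 sequenced libraries, and these are called public alpha chains here. A chain was identified by its TRAV subgroup number, its TRAJ gene and the amino acids of its junction, which runs from the conserved cysteine at the end of V to the conserved phenylalanine or tryptophan of J. All productive TRA contigs were used, 23088 in number, of which 2357 belonged to public chains. The members were chosen by how many libraries held them, so the number of libraries, of contigs and of shared chains describes the choice. "Public" means found in several libraries, since the number of animals per library, and whether 1 animal gave several nodes, are not in the labels.

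The libraries came from female mice of 10 to 11 months, wild type (WT) or 5xFAD, a line that expresses mutant human amyloid precursor protein and presenilin in neurons as a model of Alzheimer's disease amyloid. Each genotype gave 1 library per node type, from inguinal (iLN), superficial cervical (sCLN) and deep cervical (dCLN) lymph nodes, and these are the 6 main libraries. A seventh library was a dCLN sample with CD4 in its title and labelled WT, and the eighth mixed the 3 node types and both genotypes. A second CD4-titled library, labelled 5xFAD, was left out because 5851 of its alpha chains matched the first in barcode and junction. The same cells thus carry both genotype labels, so the genotype of the CD4-titled library is not settled. The labels call the cells immune cells and name no other allele or treatment, and 0 contigs of TRG, TRD or immunoglobulin loci were present. Libraries held 1495 to 6049 productive TRA contigs and 1401 to 5427 distinct chains, so larger libraries had more chances to hold a given chain. Any pair of the 8 libraries shared at most 46 barcodes, and 0 barcodes came with the same alpha junction.

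An alpha chain is made in a thymocyte by joining 1 V gene to 1 J gene. Bases are trimmed from both ends and bases without a template may be added between them, and the added and trimmed bases make most of the variety of the junction. A junction that needs few or no added bases can arise in many cells independently, and chains of this kind are known to be shared between individuals. A pair of nearly fixed alpha chains is also known from innate-like T cells. Invariant natural killer T (iNKT) cells, which see lipids on CD1d, use TRAV11 with TRAJ18, and mucosal-associated invariant T (MAIT) cells, which see vitamin B metabolites on MR1, use TRAV1 with TRAJ33.

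The junctions of the most widely shared chain, of TRAV6 with TRAJ30 and 13 amino acids, are shown first because this was the chain of all 8 libraries. Its 21 contigs held 2 nucleotide versions. In these and the following lines, lower case marks bases aligned to V or J, and capitals mark bases that the alignment counted as added in the commonest split of that version. Some contigs of a version were split otherwise: 1 of the 12 contigs of the first line counted 2 added bases.
TRAV6 with TRAJ30, 12 contigs: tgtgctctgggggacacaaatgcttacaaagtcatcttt
TRAV6 with TRAJ30, 9 contigs: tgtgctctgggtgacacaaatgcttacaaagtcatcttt

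The chain with most contigs joined TRAV14 to TRAJ22 (14 amino acids, 28 contigs in 7 libraries). It is shown because 1 version held 24 of the 28 contigs, 23 of them counted without added bases, beside 4 versions of 1 contig each that spelled the same amino acids. The last of the 4 differed from the main version only within the J part. Any difference in bases counts as a version.
TRAV14 with TRAJ22, 24 contigs: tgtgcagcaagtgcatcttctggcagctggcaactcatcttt
TRAV14 with TRAJ22, 1 contig: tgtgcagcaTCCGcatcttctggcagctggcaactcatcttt
TRAV14 with TRAJ22, 1 contig: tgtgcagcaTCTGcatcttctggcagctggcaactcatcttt
TRAV14 with TRAJ22, 1 contig: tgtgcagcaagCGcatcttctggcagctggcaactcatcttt
TRAV14 with TRAJ22, 1 contig: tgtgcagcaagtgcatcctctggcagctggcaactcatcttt

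The contrasting chain joined TRAV4 to TRAJ23 (14 amino acids, 9 contigs in 5 libraries). It had the most nucleotide versions of all public chains, 6, and every version held 4 or 5 added bases.
TRAV4 with TRAJ23, 2 contigs: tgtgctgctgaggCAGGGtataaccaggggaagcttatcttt
TRAV4 with TRAJ23, 2 contigs: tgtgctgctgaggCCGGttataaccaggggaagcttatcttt
TRAV4 with TRAJ23, 2 contigs: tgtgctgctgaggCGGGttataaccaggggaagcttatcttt
TRAV4 with TRAJ23, 1 contig: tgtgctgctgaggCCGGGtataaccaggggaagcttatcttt
TRAV4 with TRAJ23, 1 contig: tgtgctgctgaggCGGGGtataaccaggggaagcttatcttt
TRAV4 with TRAJ23, 1 contig: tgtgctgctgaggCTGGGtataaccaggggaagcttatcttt

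The iNKT chain and 1 of 8 chains with the MAIT genes and a junction of 12 amino acids were public, with few added bases. The latter is called the MAIT chain here and held 24 of the 32 contigs of those 8 chains. The MAIT chain had 22 of 24 contigs in 1 version, and the iNKT chain had 19 contigs in 4 versions that differed at a single place, where V meets J.
MAIT, 22 contigs: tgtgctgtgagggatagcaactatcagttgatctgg
iNKT, 9 contigs: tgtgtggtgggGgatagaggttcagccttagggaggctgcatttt
iNKT, 6 contigs: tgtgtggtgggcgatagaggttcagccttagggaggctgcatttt
iNKT, 2 contigs: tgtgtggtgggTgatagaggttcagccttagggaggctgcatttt
iNKT, 2 contigs: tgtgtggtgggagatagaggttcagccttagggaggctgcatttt

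Of the 521 public chains, 352 were in 3 libraries, 116 in 4, 32 in 5, 12 in 6, 8 in 7 and 1 in 8. A further 1649 chains were in 2 libraries, just outside the rule, and 16257 were in 1 library only. The members with most contigs just inside the rule were TRAV5 with TRAJ12 (11 contigs in 3 libraries), TRAV12 with TRAJ42 (8) and TRAV14 with TRAJ30, 1 of 5 members with 7 contigs. Just outside it stood TRAV4 with TRAJ48 (12 contigs in 2 libraries), TRAV10 with TRAJ31 (6) and TRAV14 with TRAJ27 (6), the last 2 among 3 chains with 6. Most members were rare: the median was 4 contigs, and 261 of them had exactly 1 contig in each library that held them.

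In the dCLN, sCLN and iLN libraries of WT, public chains made up 12.6%, 11.1% and 9.89% of the distinct chains. In 5xFAD the shares were 8.68%, 8.77% and 10.9% in the same order. The CD4-titled library, the largest, had the lowest share, 6.15% (95% exact binomial interval 5.53% to 6.83%), and the mixed library had 7.17%. Shares of WT and 5xFAD libraries overlapped, and library size moved with the share, from 1435 chains in dCLN WT to 5427 in the CD4-titled library. Its part in the share was not tested. All intervals cover counting error only.

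The leading public chains were ranked by the number of libraries that held them, so their spread over libraries follows from the choice. The TRAV6 with TRAJ30 chain had 4 contigs in dCLN WT, 1 in sCLN WT, 7 in iLN WT, 3 in dCLN 5xFAD, 2 in sCLN 5xFAD and 1 in iLN 5xFAD, with 1 in the CD4-titled and 2 in the mixed library. The TRAV14 with TRAJ22 chain had 11 of its 28 contigs in the mixed library, 2, 3 and 4 in the dCLN, sCLN and iLN WT libraries, 1 in dCLN 5xFAD, 4 in sCLN 5xFAD and 3 in the CD4-titled library. It had 0 of 1561 contigs in iLN 5xFAD, which allows a share of up to 0.192% (3 counts).

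**Figure D1:**
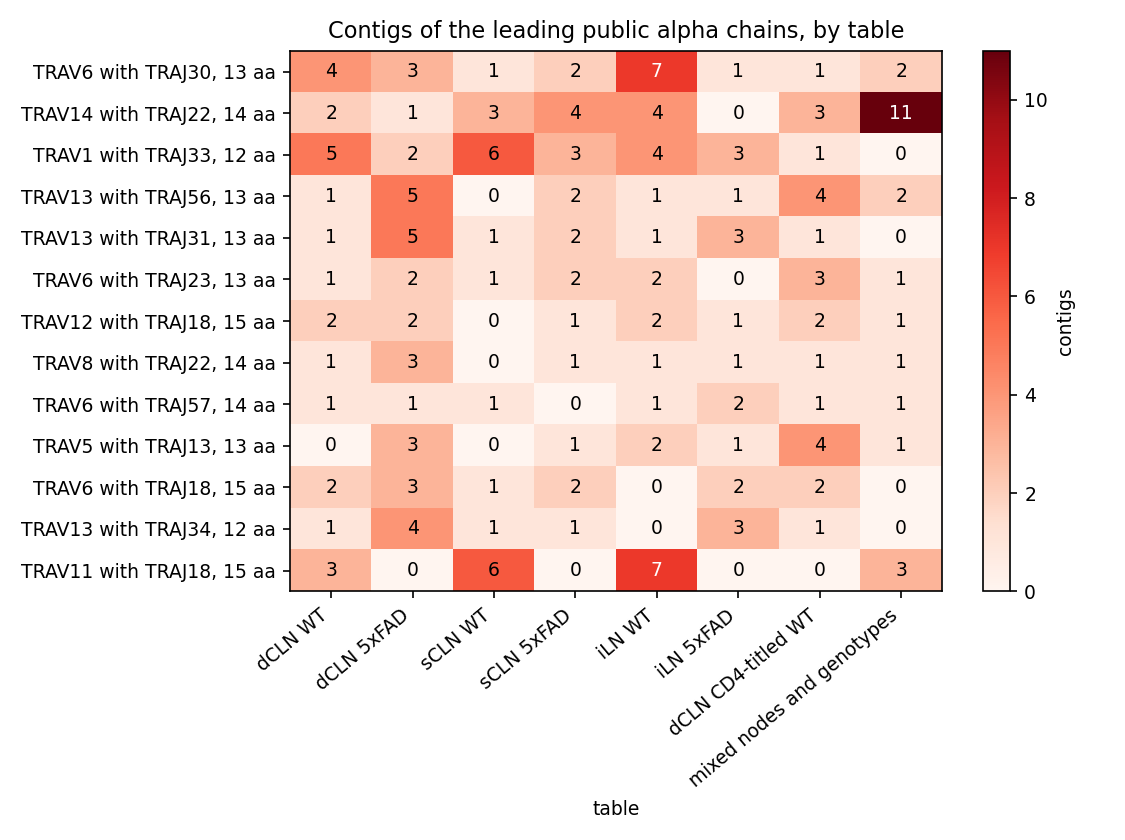
Contigs per library (columns) of the 12 public alpha chains found in most libraries and of the iNKT chain (rows, named by TRAV subgroup, TRAJ gene and junction length in amino acids, aa). The number in each cell and its colour give the contigs; the first row has 1 or more in all 8 libraries, and the last row has 0 in the 3 5xFAD libraries and the CD4-titled library.

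The MAIT chain, with contigs listed by library, had 5, 6 and 4 contigs in the dCLN, sCLN and iLN WT libraries, 2, 3 and 3 in the 5xFAD libraries in the same order, 1 in the CD4-titled library and 0 in the mixed library. It was thus in both genotypes, with 4 to 6 contigs per WT library and 2 to 3 per 5xFAD library. These counts leave out the MAIT chains that were not public, and they were not adjusted for library size. The dCLN and sCLN 5xFAD libraries were larger than those of WT. The iLN 5xFAD library was smaller, with 3 of 1561 contigs against 4 of 2129 in iLN WT. A difference by genotype was not tested. The iNKT chain had 3, 6 and 7 contigs in the WT libraries, 3 in the mixed library and 0 in the 5xFAD and CD4-titled libraries, which allows up to 0.0819%, 0.0993% and 0.192% of contigs in dCLN, sCLN and iLN 5xFAD. Both chains are named here for their known role, which the rule did not use, and the other members were given no such annotation.

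The other leading members joined TRAV13 to TRAJ56 (16 contigs in 7 libraries), TRAV13 to TRAJ31 (14 in 7), TRAV6 to TRAJ23 (12 in 7), TRAV12 to TRAJ18 (11 in 7), TRAV8 to TRAJ22 (9 in 7) and TRAV6 to TRAJ57 (8 in 7). Those of 6 libraries with most contigs were TRAV5 with TRAJ13 (12 contigs), TRAV6 with TRAJ18 (12) and TRAV13 with TRAJ34 (11). The TRAV5 with TRAJ13 chain had a single version over 12 contigs, with no added base. It is shown because 13 of its bases aligned to V and the other 26 to J.
TRAV5 with TRAJ13, 12 contigs: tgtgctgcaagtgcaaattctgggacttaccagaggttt

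Public junctions held fewer added bases than junctions of 1 library. The number of added bases was not used by the rule, and libraries were taken as the unit: in each, the mean over its public chains was set against the mean over its chains found nowhere else. Public chains had 1.30, 1.18 and 1.21 added bases in dCLN, sCLN and iLN of WT, 1.26, 1.17 and 1.25 in the same nodes of 5xFAD, 1.22 in the CD4-titled and 1.12 in the mixed library. Chains of 1 library had 3.00, 3.07 and 3.13 in WT, 3.17, 3.28 and 3.14 in 5xFAD, 3.01 in the CD4-titled and 2.94 in the mixed library. The highest library mean of public chains lay below the lowest of 1-library chains.

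The mean over 8 libraries was 1.21 ± 0.06 added bases (SD, n = 8) for public and 3.09 ± 0.11 for 1-library chains, a difference of -1.88 ± 0.12. It was negative in 8 of 8 libraries (exact two-sided sign-flip permutation test, p = 0.0078, the smallest that 8 libraries allow, adjusted p = 0.014 over 7 measures). The share of chains without any added base was 48.1% ± 2.1 against 11.8% ± 1.0, higher by 36.3 percentage points and in 8 of 8 libraries, with the same exact p. Libraries share public chains by the rule and are not independent. Counting each public chain in 1 library only, drawn with a fixed seed, left each of these 2 differences past the threshold.

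**Figure D2:**
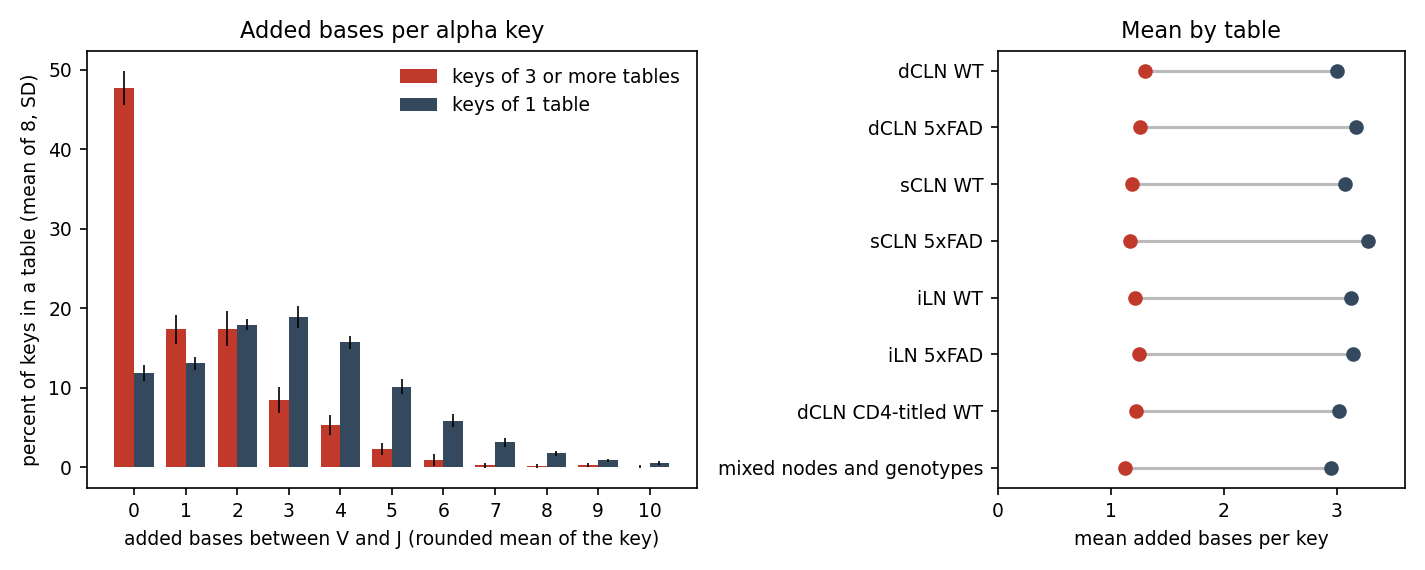
Left, percent of the distinct chains of a library (vertical axis) by number of added bases (horizontal axis), as the mean and SD over 8 libraries; right, mean added bases per chain in each library. Bars at 0 reach 47.7% for public and 11.8% for 1-library chains, where a chain's mean over contigs is rounded, and the 2 sets of points do not overlap in any library.

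The number of added bases fell along the number of libraries. Chains of 1 library had a mean of 3.08 added bases, those of 2 had 1.87, those of 3 had 1.32, those of 4 had 1.16, those of 5 had 1.25, those of 6 had 0.736 and those of 7 had 0.338. The single chain of 8 libraries had 0.0833. The order was broken only between 4 and 5 libraries, and the last 3 groups hold 12, 8 and 1 chains, so their means rest on few chains. The step between 1 and 2 libraries was larger than that between 2 and 3, and thus lies outside the threshold of the rule.

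**Figure D3:**
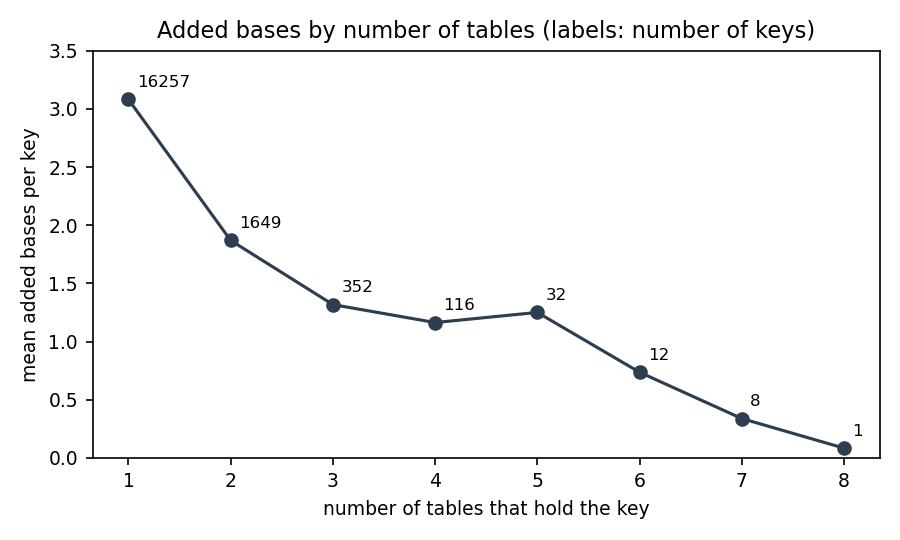
Mean number of added bases per chain (vertical axis) by the number of libraries that hold the chain (horizontal axis); the label at each point is its number of chains. The points go from 3.08 for 16257 chains of 1 library to 0.0833 for the chain of 8 libraries.

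The other parts of the junction differed less. Public junctions were shorter by 0.31 ± 0.10 amino acids (13.25 ± 0.07 against 13.56 ± 0.07, lower in 8 of 8 libraries, exact sign-flip permutation p = 0.0078, adjusted p = 0.014). They also varied less in length, with an SD over chains of 1.11 amino acids against 1.45. Lengths of 12 and 13 amino acids made up 22.0% and 33.2% of public chains and 14.1% and 25.7% of 1-library chains, whereas 16 amino acids made up 1.13% and 6.36%. The V part was 11.8 bases against 11.3 and the J part 26.7 against 26.3, so public junctions held slightly more germline bases on both sides.

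The J gene had lost fewer bases in public chains, 2.78 ± 0.14 against 3.48 ± 0.06, a difference of -0.70 ± 0.14 bases found in 8 of 8 libraries (exact sign-flip permutation p = 0.0078, adjusted p = 0.014). The 3 WT libraries had differences of -0.93 to -0.76 and the 3 5xFAD libraries -0.63 to -0.57, which do not overlap. The CD4-titled library, whose genotype is not settled, was at -0.73, between these ranges, and the mixed library was at -0.54. Of the 7 measures, J trimming was the only one whose WT and 5xFAD ranges did not overlap. The difference between genotypes was not tested. Where bases had been added, G and C made up 71.2% ± 2.1 of them in public and 65.0% ± 1.2 in 1-library chains. G alone was 43.1% against 35.6% and C 28.1% against 29.4%; these compositions were not tested.

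The depth behind the 2 classes was alike. The mean log2 number of UMIs per contig, the count of distinct transcripts sequenced, differed by 0.0002 ± 0.08, higher in 4 and lower in 4 libraries (exact permutation p = 1). Barcodes with exactly 1 productive TRB chain carried 81.5% of public and 82.8% of 1-library chains (difference -1.33 percentage points, exact permutation p = 0.039, adjusted p = 0.055). Barcodes with a second productive TRA chain carried 11.4% and 12.4% (exact permutation p = 0.19, adjusted p = 0.22). Neither of the last 2 passed the threshold of 0.05, and the first passed it without dCLN WT, at -1.59 points, as did the second at -1.55.

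Some junctions were split by the alignment in several ways. Of 549 public nucleotide junctions with 2 or more contigs, 75 (13.7%) were split in more than 1 way between V, added and J bases. The 170 junctions with 1 V gene called held 5 of these, and the 379 with 2 or more held 70. In TRAV13 chains, for example, the bases after the first 11 were counted as V in some contigs and as added in others. Among public chains, 32 averaged 4 or more added bases. The 2 versions below belong to 1 of these, TRAV13 with TRAJ26. They are different junctions, each split in 1 way. The bases ac after the first 11 were counted as added in the first and as V in the second.
TRAV13 with TRAJ26, 2 contigs: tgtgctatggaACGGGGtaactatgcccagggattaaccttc
TRAV13 with TRAJ26, 1 contig: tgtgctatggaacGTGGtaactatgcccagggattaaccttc

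The members with the longest mean added stretch were TRAV4 with TRAJ49 and TRAV6 with TRAJ40 (6.0 bases each), TRAV13 with TRAJ40 (5.6), TRAV13 with TRAJ26 (5.33) and TRAV13 with TRAJ23 (5.0). Of these 5, 4 were in 3 libraries and TRAV13 with TRAJ40 was in 5. Its most frequent version, 6 of 10 contigs, was in 4 libraries and is shown because it was shared in spite of its added bases.
TRAV13 with TRAJ40, 6 contigs: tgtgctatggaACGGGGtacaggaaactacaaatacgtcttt

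Public chains used 16 TRAV subgroups, 40 TRAJ genes and 242 pairs of V and J, beside 20, 43 and 712 for the 1-library chains, which are far more numerous, so these counts cannot be compared. The commonest pairs were TRAV6 with TRAJ23 (12 members), TRAV6 with TRAJ22 (8) and TRAV6 with TRAJ48 (8).

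Of 62 TRAV subgroups and TRAJ genes tested over the 8 libraries, 9 were used more by public chains and 22 less (exact sign-flip permutation test, adjusted over 62, threshold 0.05). These are 14.5% and 35.5% of the features tested. With each public chain counted in 1 library, 12 calls remained, 3 higher and 9 lower. In the 6 main libraries alone 0 remained by this test. There, 30 features had an unadjusted p under 0.05, and the lowest adjusted p was 0.064. The J genes that rose were TRAJ22, TRAJ12, TRAJ18, TRAJ23, TRAJ30, TRAJ13 and TRAJ43, and the V subgroups were TRAV6 and TRAV14. Because the smallest p is 0.0078, 10 features must reach it together before any can pass, so the number of calls depends on how many move. limma on the log2 share ratios called 29 features, 11 higher and 18 lower, and 27 of the 31 in the same direction.

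TRAJ22 showed the largest difference. It made up 10.5%, 9.03% and 10.1% of public chains in the dCLN, sCLN and iLN WT libraries, 8.47%, 8.06% and 6.13% in 5xFAD, 8.68% in the CD4-titled and 8.68% in the mixed library. Its share of 1-library chains was 2.38% to 4.07%, so the classes did not overlap. The means were 8.71% ± 1.33 and 3.23% ± 0.71 (difference 5.48 points, 8 of 8 libraries, exact permutation p = 0.0078, adjusted p = 0.020). TRAJ22 was the J gene of 42 members, and that of the TRAV14 chain above and the TRAV8 chain among the leading ones.

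TRAJ12 made up 6.25% ± 1.49 against 2.55% ± 0.49, TRAJ18 5.39% ± 1.18 against 2.13% ± 0.39 and TRAJ23 6.47% ± 1.32 against 3.35% ± 0.34, each higher in 8 of 8 libraries. TRAJ13 followed with 3.94% ± 1.26 against 2.22% ± 0.54, also in 8 of 8. TRAJ30 had 4.92% against 2.68% and TRAJ43 3.26% against 2.28%, each higher in 7 of 8 libraries (adjusted exact permutation p = 0.031). TRAJ18, the J gene of the iNKT chain, was called also when iNKT and MAIT chains were left out, as were the other 30 features.

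These J genes lie on chromosome 14 between the V genes and the constant region, with the highest numbers nearest to the V genes. In the GENCODE annotation of GRCm38, TRAJ22 is at chr14:54197248-54197307, TRAJ13 at chr14:54205741-54205797 and TRAJ30 at chr14:54189866-54189924, all on the plus strand. Their germline sequences, with that of TRAJ12, are given because these J genes rose. Capitals mark the bases that the alignment gave to J in the commonest junction of the leading member with that J gene; bases that fit the end of V as well can be counted as V.
TRAJ22: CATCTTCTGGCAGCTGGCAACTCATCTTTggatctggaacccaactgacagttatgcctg
TRAJ13: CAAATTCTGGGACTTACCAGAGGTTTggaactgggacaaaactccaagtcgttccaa
TRAJ30: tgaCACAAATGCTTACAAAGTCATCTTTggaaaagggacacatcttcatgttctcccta
TRAJ12: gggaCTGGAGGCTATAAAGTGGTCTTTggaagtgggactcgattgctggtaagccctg

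TRAV6 made up 23.3% ± 3.2 of public and 19.1% ± 2.7 of 1-library chains, and TRAV14 11.8% ± 2.4 against 8.12% ± 1.64, both higher in 8 of 8 libraries (adjusted exact permutation p = 0.020). These subgroups hold 15 and 9 annotated V genes. Of other large subgroups, TRAV7 (13 genes), TRAV13 (11) and TRAV12 (9) were not called, and TRAV9 (10) was lower. Of the 521 members, 452 had contigs called to 2 or more V genes of their subgroup.

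The features that fell most were TRAV5 (2.37% ± 0.92 against 5.61% ± 1.79, lower in 8 of 8 libraries), TRAV9 (0.599% against 3.19%, lower in 7 of 8), TRAJ45 (0.881% ± 0.53 against 3.05% ± 0.62), TRAJ37, TRAV10, TRAV3, TRAJ39, TRAJ32, TRAJ17, TRAJ4, TRAJ38 and TRAJ58. TRAJ38 had 0 public chains beside 188 chains of 1 library. The TRAV9 share of 1-library chains ran from 0.366% to 9.05% between libraries. It was highest in the CD4-titled and mixed libraries, where the TRAV9 differences were -8.15 and -6.65 points. In the 6 main libraries they ran from -2.68 points in iLN WT to 0.25 points in iLN 5xFAD. The ranges of TRAV5 did not wholly separate, at 1.23% to 3.63% against 3.48% to 8.41%.

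**Figure D4:**
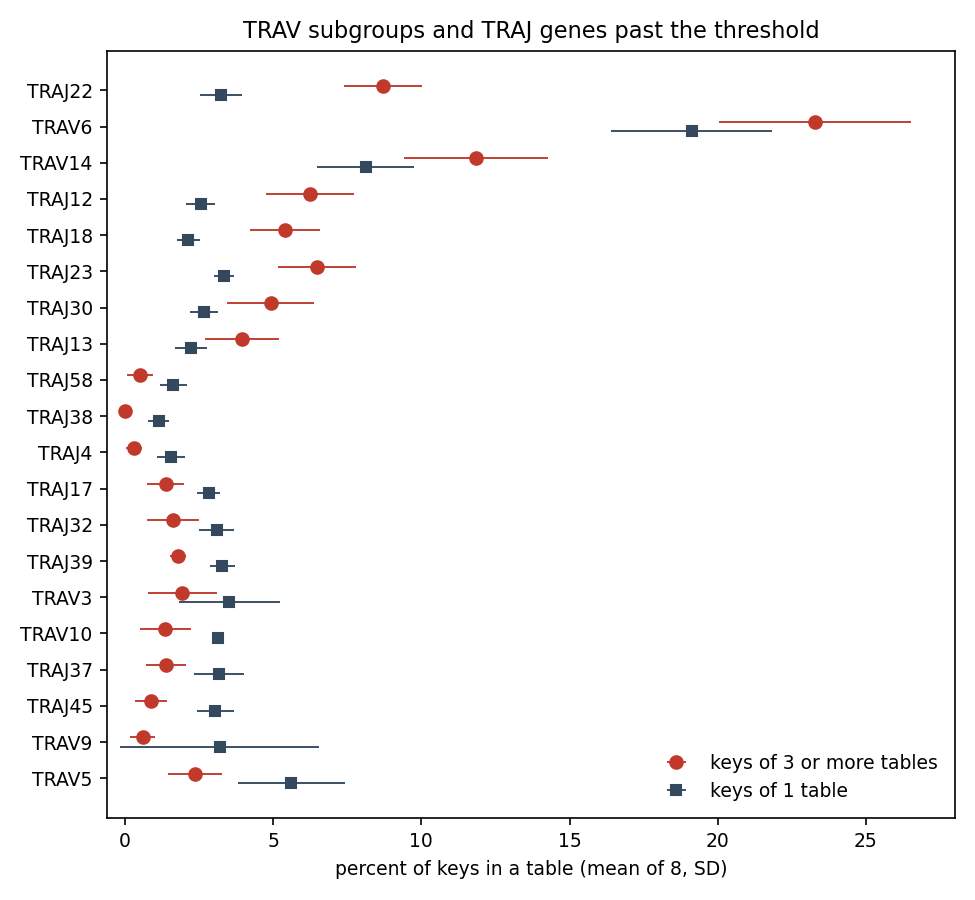
Share of public chains (circles) and of 1-library chains (squares) that used each TRAV subgroup or TRAJ gene, as mean and SD over 8 libraries, for the 20 features past the threshold with the largest difference. The horizontal axis is the percent of distinct chains in a library; TRAJ22 at 8.71% against 3.23% stands at the top and TRAV5 at 2.37% against 5.61% at the bottom.

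By position in the J cluster, TRAJ genes numbered 18 to 34 made up 43.2% ± 3.6 of public and 35.8% ± 2.1 of 1-library chains, higher in 7 of 8 libraries, with 4 of 13 genes called higher and 3 lower. Those numbered 35 to 49 made up 23.3% ± 2.6 against 28.5% ± 1.2, lower in 8 of 8, with 1 of 12 called higher and 5 lower. Genes numbered 50 and above (11.6% against 12.5%) and 17 and below (22.0% against 23.3%) were nearer to each other. The median difference of the genes was negative in each of the 4 lists (-0.44 points in the list of 18 to 34), and -0.35 over all 43 TRAJ genes tested, so the higher total of 18 to 34 came from few genes, TRAJ22, TRAJ23, TRAJ18 and TRAJ30.

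The J genes were not of 1 germline sequence in all libraries. In 5 TRAJ genes, TRAJ31, TRAJ32, TRAJ34, TRAJ37 and TRAJ45, a second base was read at 6 positions of the J part of the junction, and in each of the 5 genes it changed an amino acid. Bases next to the joint were not searched, so other TRAJ genes may hold second bases there. In these libraries the second base was carried by 100% of 481, 406 and 204 chains in dCLN, sCLN and iLN of 5xFAD. It was carried by 56.0% of 193, 47.8% of 205 and 46.2% of 277 chains in the same nodes of WT, 75.9% of 814 in the CD4-titled library and 3.62% of 469 in the mixed library. The mixed library, labelled as holding both genotypes, thus had almost none of the bases that were the only ones in the 5xFAD libraries.

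The ends of the junction as read in most chains with each base are shown for TRAJ31 and TRAJ34, since 2 of the 12 leading members use these genes. Capitals mark the position that differs, and the first line of each pair carries the base of GRCm38.
TRAJ31, GRCm38 base: ataGcaataacagaatcttcttt
TRAJ31, second base: ataAcaataacagaatcttcttt
TRAJ34, GRCm38 base: accAacaaagtcgtcttt
TRAJ34, second base: accGacaaagtcgtcttt

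Both leading members, TRAV13 with TRAJ31 and TRAV13 with TRAJ34, carried the second base. They were in 7 and 6 libraries and had 0 contigs in the mixed library. Of the 55 public chains with these 5 TRAJ genes, 39 carried the second base, 4 the GRCm38 base, and in 12 the position was trimmed or too near the joint to be read. The 39 were in 5xFAD libraries in 38 cases, in WT libraries in 24 and in the mixed library in 3. Of all 521 members, 298 were in main libraries of both genotypes, 139 in 5xFAD and not WT, and 84 in WT and not 5xFAD. The mixed library held 242 of the 521. The 4 were all in WT libraries and in the mixed library. In 5xFAD libraries were 0 of the 4, since every chain read there carried the second base.
The TRAV13 with TRAJ31 version was counted without added bases in 6 of its 11 contigs and with up to 2 in the others.
TRAV13 with TRAJ31, 11 of 14 contigs: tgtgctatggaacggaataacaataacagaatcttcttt
TRAV13 with TRAJ34, 10 of 11 contigs: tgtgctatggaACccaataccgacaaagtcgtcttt

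**Figure D5:**
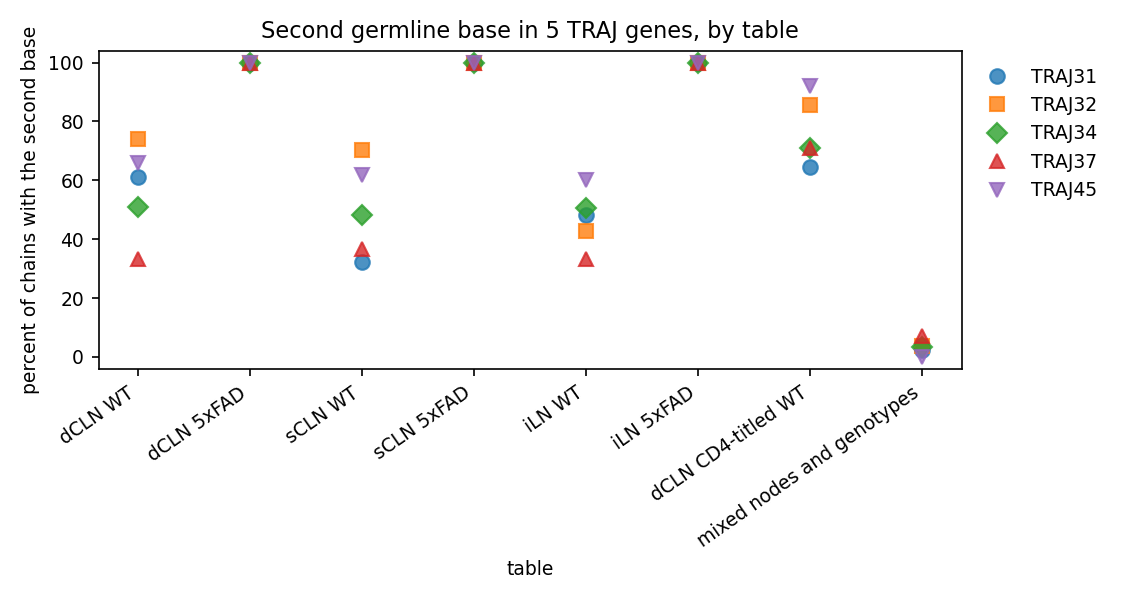
Percent of chains that carried the second base (vertical axis) in each library (horizontal axis), with a symbol for each of 5 TRAJ genes. All 5 stand at 100% in the 3 5xFAD libraries and between 0% and 7.08% in the mixed library.

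Leaving out these 5 TRAJ genes kept the differences in added bases (-1.91), share without added bases (37.7 points), length (-0.30) and J trimming (-0.67), each with exact permutation p = 0.0078. Of the features that fell, TRAJ32, TRAJ37 and TRAJ45 are among the 5 genes. The part of the second base in their lower share among public chains was not tested.

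Most public chains were written in several nucleotide versions. Of 521 members, 106 had 1 version, 216 had 2 and 199 had 3 or more, so 79.7% had 2 or more (95% exact binomial interval 75.9% to 83.0%). The share was 68.5% when versions that differed only in the V bases, as between genes of a subgroup, were counted as 1. Members have 3 or more contigs by the rule, so they are set beside chains of 1 library with as many. Of 65 such chains of 1 library, 36.9% had 2 or more versions, against 74.1% of 212 members with exactly 3 contigs. Contigs of 1 library can be sister cells of a clone, so these values have no test.

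In 122 members no contig had an added base, and 48.4% of these had a single version. In 191 members every contig had added bases and 14.7% had a single version; these shares are a description. The same amino acids in 2 libraries came with a shared nucleotide version in 53.2% of the 2448 library pairs within members.

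The cells behind a public chain were different clones by their beta chains. Of 1941 cells of public chains with exactly 1 productive TRB chain, 1896 combinations of alpha chain and TRB junction were distinct (97.7%). In 460 of 499 members with 2 or more such cells, every cell had its own TRB junction. The TRAV14 with TRAJ22 chain had 25 such cells with 25 TRB junctions from 14 TRBV genes. The TRAV6 with TRAJ30 chain had 17 cells with 16 TRB junctions, 6 of the cells with TRBV16.

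A TRB junction recurred in 2 libraries for 7 members, 6 times between 2 WT libraries and once between dCLN and iLN of 5xFAD. The 6 were TRAV10 with TRAJ16 (5 cells), the iNKT chain (3 cells), and TRAV13 with TRAJ17, the MAIT chain, TRAV6 with TRAJ30 and TRAV6 with TRAJ48 (2 cells each). The 5xFAD pair was TRAV7 with TRAJ42 and TRBV26. In each of these 7 cases the alpha junction was also identical in nucleotides. Recurrence within a genotype could be counted only between nodes, because each node and genotype had 1 library.

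The invariant chains were paired mostly with TRBV13 genes. Of 17 iNKT cells with 1 TRB, 6 used TRBV13-1, 6 TRBV13-2, 3 TRBV13-3 and 2 TRBV29. Of 18 cells of the public MAIT chain, 8 used TRBV13-3 and 3 TRBV13-2, and the other 7 were spread over 6 genes. Cells with a TRB junction found in 2 libraries were each counted, 3 iNKT cells with TRBV13-1 and 2 MAIT cells with TRBV13-3. Over all public chains, TRBV13-1, TRBV13-2 and TRBV13-3 made up 8.44%, 11.9% and 8.12% of TRB partners (means of 8 libraries). The pairing of the invariant chains was not tested against these shares. TRBV13 and TRBV29 are the mouse names of V-beta 8 and V-beta 7, which are known from iNKT cells.

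Over all public chains, the TRB partners did not differ from those of 1-library chains beyond the spread. Of 33 TRBV and TRBJ genes tested, 0 were called higher (0% of features) and 0 lower (0%) by the exact sign-flip permutation test. At an unadjusted p under 0.05 there were 4 features, and limma called 0 with 3 at that level. The lowest adjusted p was 0.26, for TRBJ1-2 with 6.76% ± 2.14 against 5.26% ± 1.09, higher in 7 of 8 libraries. With 33 features 6 must reach the smallest p together to pass, so single changes could not be called.

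Of the 521 public chains, 298 were in main libraries of both genotypes, 84 in WT and not in 5xFAD and 139 in 5xFAD and not in WT. The main 5xFAD libraries together held more chains than the WT ones. A set of 3 members, TRAV6 with TRAJ30, the MAIT chain and TRAV13 with TRAJ31, was in all 6. In the 3 WT libraries and no 5xFAD library were 10 members, and in the 3 5xFAD libraries and no WT library 28.

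The 3 with most contigs on the WT side were the iNKT chain, TRAV3 with TRAJ7 (7 contigs, 2 versions) and TRAV16 with TRAJ23 (6 contigs, 4 versions), 1 of 2 members with 6. On the 5xFAD side they were TRAV6 with TRAJ23 and 12 amino acids (11 contigs, 5 versions), TRAV7 with TRAJ17 (7 contigs) and TRAV7 with TRAJ52 (6 contigs), 1 of 5 members with 6. Each of the latter 3 was also in the mixed library. The first and the last were in the CD4-titled library, whose cells carry both genotype labels. One of the 5 TRAJ genes with a second base was used by 55 of all 521 members. Of the 28 members 8 used one, and of the 10 members 0 did, a contrast of few members that was not tested. The 3 commonest versions of the TRAV6 chain are shown because they differ in V bases and in no others.
TRAV6 with TRAJ23, 4 contigs: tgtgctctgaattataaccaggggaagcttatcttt
TRAV6 with TRAJ23, 3 contigs: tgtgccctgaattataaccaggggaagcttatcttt
TRAV6 with TRAJ23, 2 contigs: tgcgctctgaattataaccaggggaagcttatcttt

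Sharing is what the rule used and is given as a description, per 1000000 pairs of distinct chains compared. It was 33.3 between WT libraries (95% exact Poisson interval 29.3 to 37.6, single pairs 29.9 to 40.3), 29.2 between 5xFAD libraries (26.8 to 31.7, pairs 28.3 to 29.5) and 24.0 between WT and 5xFAD (22.5 to 25.7, pairs 21.4 to 28.8). Between genotypes it was 24.4 where the node was the same and 23.9 where it differed, within counting error of each other. A nucleotide version was shared in 61.4% of WT pairs within members, 51.3% of 5xFAD pairs and 54.1% of pairs between genotypes, with overlapping intervals (53.7% to 68.6%, 45.6% to 56.9% and 49.96% to 58.2%).

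For chains with the 5 TRAJ genes alone, compared among themselves, the values were 107.6 between WT libraries, 199.6 between 5xFAD libraries and 103.7 between genotypes. The mixed library shared 79.9 with WT and 11.2 with 5xFAD, from 36 and 8 shared chains. For chains with all other TRAJ genes the values were 43.6, 34.01 and 30.5, and 28.5 and 23.7 for the mixed library, so the order of the kinds of pairs was the same as over all chains. Germline bases, genotype and library cannot be told apart in these samples, since each 5xFAD library carried the second base alone.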

How the data were processed

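Single-cell T-cell receptor libraries were sequenced with 10x Genomics chemistry, per the labels' protocols. Cell Ranger 6.0.1, Seurat 4.1.0 and mm10 are named in the submitters' processing notes without a role. V and J genes were called with IgBLAST, per the file headers' column set. The deposited counts are UMIs and reads per contig. The other deposited values are lengths and positions in bases, per the file headers.

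Productive TRA contigs of 8 libraries were grouped by TRAV subgroup number, TRAJ gene and junction amino acids. The members and lists were chosen with earlier results of these data known. In each library, means over public chains and over chains of that library only were compared, with an exact two-sided sign-flip permutation test over libraries and Benjamini-Hochberg adjustment over 7 measures, or over all features with 10 or more chains. P-values measure the spread between these libraries, which may be technical. The tests were tried on simulated shares drawn separately for each library. Public chains common to several libraries were not simulated, so dependence between libraries was not covered. limma 3.58.1 in R 4.3.3 (pseudocount 0.5 chains) was an alternative.

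Members named were the 12 in most libraries, iNKT and MAIT chains, the 5 with most versions and the 5 with longest added stretch, 3 of each genotype only, and 3 at each side of the threshold; of the features past the threshold the 20 with the largest difference, and the 9 higher ones. A second J base had to be in 20% or more of at least 10 chains of a library, 3 or more bases from the joint, a search added after the data were seen. J genes came from GENCODE M21 on GRCm38. A member's other versions and junction amino acids are not printed.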

Additional observations from a re-analysis of the deposited data

How the results depend on the processing

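The differences in added bases, share without added bases, length and J trimming kept their direction under all 18 alternatives and passed the threshold in 17 of them. With the 6 main libraries only they were -1.88 bases, 37.99 points, -0.32 amino acids and -0.72 bases, in 6 of 6 libraries, but 6 libraries cannot give an exact p under 0.03125, and adjusted over 7 measures it did not pass. Of the 31 V and J calls, 0 remained there. The lowest adjusted exact permutation p was 0.064, with 30 features at an unadjusted p under 0.05. With each chain counted in 1 library, 12 calls remained (3 higher, 9 lower, all 31 with the same sign). Leaving out 1 library gave 23 to 27 calls. The TRB share passed without ambiguous calls (-2.06 points) and ranged from -1.88 to -0.46 with 1 library left out, and that of second TRA chains from -1.55 to -0.48. The cause of these last changes was not tested. The number of members was 175 with the V gene in place of the subgroup, 909 with junction amino acids alone, 233 with nucleotides, 2170 from 2 libraries, 169 from 4, 215 in the 6 main libraries, 141 with libraries thinned to the smallest, and 316 to 434 with 1 library left out (316 without the CD4-titled one). Sharing within WT was 29.9 to 40.3 per 1000000 with 1 library left out (40.3 without iLN WT). Without the 5 TRAJ genes it was 43.6 within WT, 34.01 within 5xFAD and 30.5 between, over fewer chains compared. The share of members with 2 or more versions was 68.5% without V bases and 88.8% from 4 libraries. No paired analysis was possible because the labels give the groups no shared animals or replicate pairs; the tests compare both classes of chains within each library. The alternatives for UMIs, TRB and second TRA chains, sharing, versions and the 5 TRAJ genes were chosen after seeing the data.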
